A study of Mus musculus with 2 samples.

Results

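The genes described here are the zinc finger genes whose symbols begin with Zfp, Zbtb, Zscan or Zkscan and a number, taken from a table of RPKM values (reads scaled to gene length and to the library's mapped reads) for mast cells with and without Tet2. The rule took every such row, and every Klf row apart from Klf2, and left out the Zfp36 family, whose proteins bind RNA. It found 78 of the 8139 rows: 66 Zfp, 6 Zbtb, 3 Zscan and 3 Zkscan symbols. No row of the Kruppel-like (Klf) family met it, so the values below are those of the other families. A gene without a row has no value here, so nothing can be said of its level. RNA came from mast cells grown out of C57BL/6 bone marrow in interleukin-3 and stem cell factor, 1 library from wild type (WT) cells and 1 from Tet2-/- cells, which lack a dioxygenase acting on methylated cytosines. The labels describe both cultures as carrying c-Kit and the IgE receptor. The labels do not say how the Tet2 allele was made or how many mice gave cells, and Tet2 itself was not analysed here. Each genotype has a single library, so differences could not be set against a spread between replicates and no test was made.

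Zinc finger proteins of the C2H2 type hold short loops in which a pair of cysteines and a pair of histidines grip a zinc ion, and each loop reads a few bases of DNA. In the largest subfamily the fingers are joined to a KRAB box, which recruits the corepressor TRIM28 and, through it, histone methylation that silences mobile elements and some genes. Zbtb proteins carry a BTB domain, which pairs the proteins and brings in corepressors such as NCOR, and Zscan and Zkscan proteins carry a SCAN domain used for pairing. Several such proteins set the fate of blood cells, and a few recognise methylated CpG.

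The rule used symbols only, so the protein structure of the members was read from the coding sequences of GENCODE M21 transcripts. Of the 74 members with a coding sequence, 70 (94.6%) encoded at least 1 finger, against 3.86% of the 3704 rows with a coding sequence. The median was 9 fingers and the most was 33, in Zfp462, a chromatin regulator of development. A KRAB match was found in 32 members (43.2%), against 1.51% of those rows, and a SCAN match in 9 members (12.2%), against 0.243%. A box that departs from the residue pattern is missed, so the number of KRAB genes may be too low. Zkscan1, Zkscan2 and Zkscan8 had a SCAN match but no KRAB match. No finger of this spacing was found in 4 members, Zfp703, Zfp957, Zfp781 and Zfp474. The remaining 4 rows are not coding genes of the annotation: Zbtb11os1 and Zfp335os are antisense RNAs, Zfp572 is a processed pseudogene there, and Zfp286it was not matched. These 4 were counted, but the label of transcription factors does not hold for them.

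A finger, the repeated unit found in most members, is shown for the member with the highest level (Zfp62). It is also shown for those with the lowest and highest difference between the libraries (Zfp667 and Zfp456). Each sequence is the coding strand of a single finger, 63 bases long, with the codons of its cysteines and histidines in capitals.
Zfp62: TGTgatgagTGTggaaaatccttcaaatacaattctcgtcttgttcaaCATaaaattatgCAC
Zfp667: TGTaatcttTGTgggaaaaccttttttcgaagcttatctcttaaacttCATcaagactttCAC
Zfp456: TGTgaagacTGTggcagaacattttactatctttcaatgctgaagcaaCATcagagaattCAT
The Zfp62 stretch lies at chr11:49215459-49215521 on the plus strand, in exon 4 of 4. The Zfp667 stretch lies at chr7:6304770-6304832 on the plus strand, in exon 5 of 5, and the Zfp456 stretch at chr13:67367034-67367096 on the minus strand, in exon 4 of 4. All coordinates are of build GRCm38, which is mm10. The 4 capital codons keep the same spacing in the 3 genes, but the search pattern fixed most of that spacing. Only the gap between the histidines could have differed.

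Most of the coding members were expressed above 1 RPKM in the mast cells. A mean of at least 1 RPKM over the libraries was reached by 51 of the 74 coding members (68.9%), against 47.4% of the 3734 protein-coding rows. Only 15 coding members (20.3%) had a mean of 10 RPKM or more, against 31.4% of protein-coding rows, and 36 lay between 1 and 10 RPKM. The highest was Zfp62, at 22.0 RPKM in WT cells and 24.4 RPKM in Tet2-/- cells. Next came Zfp35 at 20.01 and 21.5 RPKM, Zfp830, which encodes a factor of pre-mRNA splicing and genome stability, at 21.1 and 17.9 RPKM, and the KRAB gene Zfp386 at 17.9 and 18.6 RPKM. Genes with a KRAB match were 2 of the 15 members at 10 RPKM or more and 18 of the 36 coding members between 1 and 10 RPKM.

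**Figure D1:**
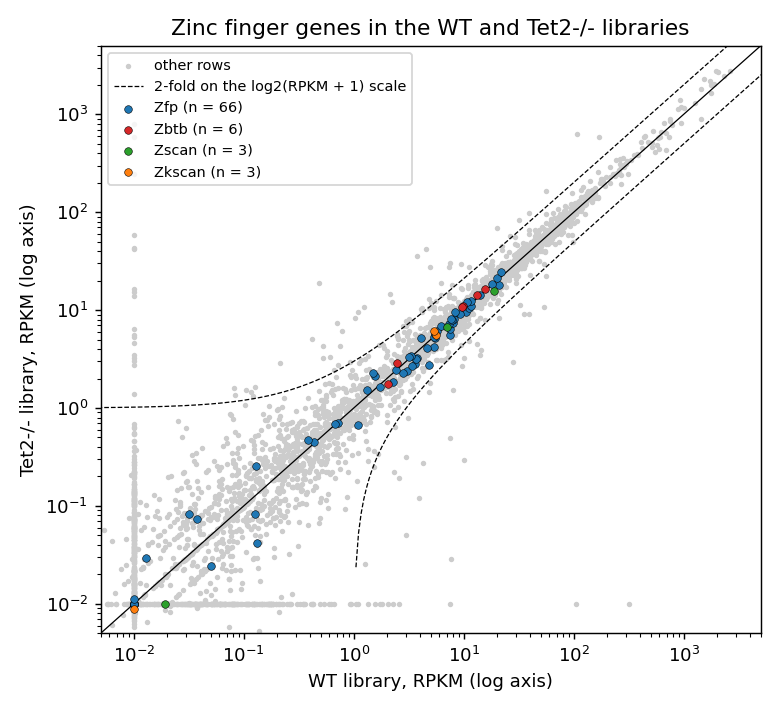
RPKM in the Tet2-/- library (vertical, log axis) against RPKM in the WT library (horizontal, log axis), 1 point per row, members coloured by family and other rows in grey. The solid line marks equal values and the dashed lines 2-fold on the log2(RPKM + 1) scale. None of the 52 members whose mean reached 1 RPKM lies beyond the dashed lines, and below that level the added 1 RPKM keeps points inside them.

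No member expressed at 1 RPKM or more on average differed by 2-fold or more between the genotypes. Of the 52 members whose mean reached 1 RPKM, 0 were higher in Tet2-/- at a log2 fold of at least 1, against 2.90% of the 2107 rows past this filter, and 0 were lower, against 1.61%. With shares this small, counts of 0 among 52 members do not set the members apart from the other rows. All log2 folds were taken after adding 1 RPKM, so the differences of weakly expressed genes are understated. The RPKM ratios of the 52 ran from 0.571 to 1.52. The median log2 fold of the 52 was -0.01, with 25 above 0 and 27 below, and that of the 2107 rows was 0.01. In RNA from a bulk culture, fewer cells of a type and less RNA per cell cannot be told apart.

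Few of the members' differences were large, while their typical size was close to that of all rows. Their log2 folds ran from -0.63 to 0.39, and 98.1% of them lay within 1.5-fold, against 90.6% of all rows past the filter. Among the 1380 rows with means in the range the members cover, 88.3% lay within 1.5-fold. The median absolute log2 fold was 0.13 for the members, 0.14 for all rows past the filter and 0.16 for these 1380 rows. At that lower threshold 1 member was lower in Tet2-/- and 0 were higher, against 3.61% and 5.84% of rows past the filter. The summed level of the 78 members was 401 RPKM in WT cells and 397 RPKM in Tet2-/- cells.

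**Figure D2:**
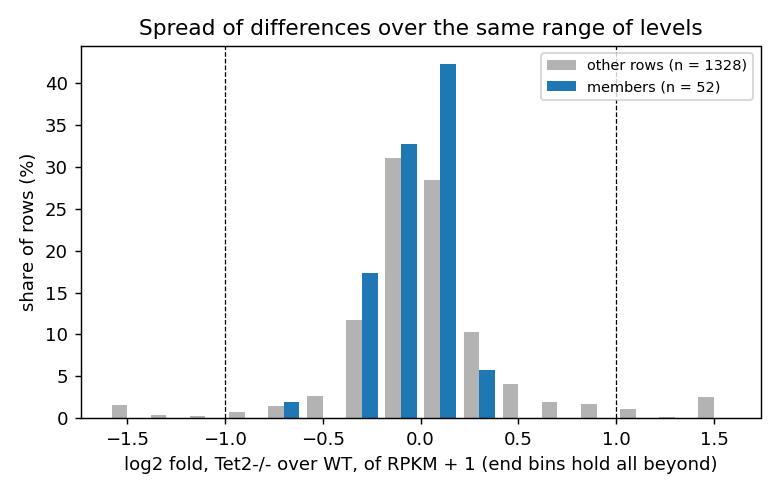
Share of rows (vertical, in percent) by log2 fold of RPKM + 1, Tet2-/- over WT (horizontal, bins of equal width). Blue bars are the 52 members whose mean reached 1 RPKM, and grey bars the other rows in the same range of means. The member folds end at -0.63 and 0.39, while grey bars reach past the dashed 2-fold lines, and the end bins hold all rows beyond.

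Most of the remaining differences were within counting error. From the spacing of low RPKM values, depth was put at 31100000 fragments for WT and 32000000 for Tet2-/-, so that 1 RPKM in a transcript of 2 kb stands for 56.9 and 58.2 fragments. From these an exact Clopper-Pearson 95% interval of each ratio was made, which leaves out any variation between cultures or animals. Of 51 members past the filter with such an interval, 35 included a ratio of 1. The interval lay above 1 for 6 members and below 1 for 10, against 27.1% and 23.4% of all 1921 rows with an interval. Among the 1247 such rows in the members' range of means the shares were 22.1% and 21.8%. The fragment numbers rest on the shortest annotated transcript, and with the longest one 10 lay above and 10 below, against 30.5% and 26.7% of rows. The members that moved above 1 were Zfp160, Zfp456, Zfp560 and Zkscan8.

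The members with a KRAB match, which are presumed repressors, held both ends of the range. Zfp667 had 4.85 RPKM in WT cells and 2.77 RPKM in Tet2-/- cells, so the ratio of Tet2-/- to WT was 0.571 (0.370 to 0.869). That interval rests on about 64 and 37 fragments, and with the longest transcript it was 0.494 to 0.658. Zfp667 was the only member beyond 1.5-fold on the log2(RPKM + 1) scale (-0.63), a call that ended with a pseudocount of 5 RPKM (-0.34). At the other end Zfp456 was at 1.49 and 2.26 RPKM, with a ratio of 1.52 (0.882 to 2.66) from about 24 and 36 fragments. Its interval included 1, and lay above 1 only with the longest transcript (1.26 to 1.84). Zfp707 was at 5.34 and 4.16 RPKM, with a ratio of 0.780 (0.646 to 0.942). Zfp58 was at 3.59 and 2.82 RPKM and Zfp759 at 2.27 and 1.84 RPKM, both with an interval just below 1, while that of Zfp90 (2.80 and 2.31 RPKM) included 1. Zfp560 was at 8.28 and 9.57 RPKM and Zfp160 at 6.21 and 6.93 RPKM, and both intervals included 1 with the shortest transcript but not with the longest (1.07 to 1.25 and 1.01 to 1.24). Over the 20 members past the filter with a KRAB match the median log2 fold was -0.01. Their intervals lay above 1 for 0 and below 1 for 4, and for 3 and 4 with the longest transcript. The shares over all rows were the 27.1% and 23.4%, and the 30.5% and 26.7%, given above. Whether members with a KRAB match differ from the others was not tested.

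Zfp473, a KRAB gene whose product takes part in the processing of histone pre-mRNA, stood just under the filter. It was at 1.09 RPKM in WT cells and 0.666 RPKM in Tet2-/- cells, a ratio of 0.611 (0.438 to 0.848), and was named after its values were seen.

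**Figure D3:**
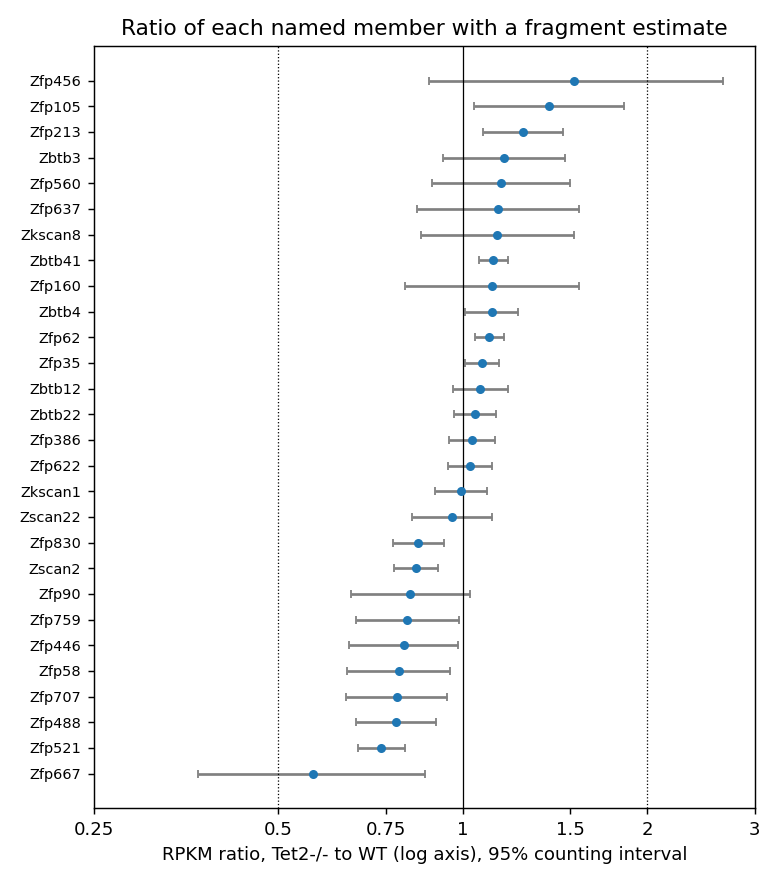
RPKM ratio of Tet2-/- to WT (horizontal, log axis) for the named members that have a fragment estimate, ordered by ratio. Points are ratios, bars their 95% counting intervals, the solid line a ratio of 1 and the dotted lines ratios of 0.5 and 2. The ratios run from 0.571 (Zfp667) to 1.52 (Zfp456).

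The BTB genes all lay close to equal levels. Of 6 Zbtb rows, 5 had a log2 fold above 0, against 1096 of the 2107 rows past the filter, and the largest was 0.16. Zbtb4, which encodes a protein that binds methylated CpG and was the only listed gene of 9 on a list of methyl-DNA readers, was at 9.91 RPKM in WT cells and 11.1 RPKM in Tet2-/- cells, a ratio of 1.12 (1.01 to 1.23). Zbtb41 was at 9.64 and 10.8 RPKM, with a ratio of 1.12 (1.06 to 1.18). These were the 2 of 6 Zbtb rows whose interval lay above 1, against 27.1% of all rows with an interval. Counts over 6 rows do not set the Zbtb rows apart from the others. Zbtb22 was at 15.7 and 16.4 RPKM, Zbtb12 at 13.3 and 14.3 RPKM and Zbtb3 at 2.48 and 2.89 RPKM, and the intervals of these 3 included 1. The antisense RNA Zbtb11os1 was at 2.04 and 1.76 RPKM.

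The SCAN genes went in both directions. Zscan2 was at 18.8 RPKM in WT cells and 15.8 RPKM in Tet2-/- cells, a ratio of 0.839 (0.773 to 0.911), and Zfp446 at 3.37 and 2.70 RPKM, with a ratio of 0.801 (0.652 to 0.984). Zfp213, also with a SCAN match, was at 4.10 and 5.14 RPKM, with a ratio of 1.25 (1.08 to 1.46). Zscan22 at 7.04 and 6.76 RPKM and Zkscan1 at 5.63 and 5.60 RPKM had intervals that included 1. That of Zkscan8, at 5.37 and 6.12 RPKM, included 1 with the shortest transcript and lay above 1 with the longest (1.06 to 1.22). Zkscan2 was listed at 0.01 in WT cells and 0.00887 RPKM in Tet2-/- cells. Zscan4d, a gene of the early embryo, was at 0.0194 RPKM in WT cells and listed at 0.01 in Tet2-/- cells. Each of these last values stands for about 1 fragment at most, so no difference was detectable there.

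Among members with neither match, Zfp521 and Zfp105 stood furthest apart in the libraries. Zfp521, a regulator of blood progenitors, was at 7.58 RPKM in WT cells and 5.58 RPKM in Tet2-/- cells, a ratio of 0.737 (0.674 to 0.806) on 1146 and 867 fragments. Zfp105 was at 1.55 and 2.15 RPKM, with a ratio of 1.38 (1.05 to 1.83). Zfp488, known for its part in oligodendrocyte development, was at 3.06 and 2.38 RPKM, with a ratio of 0.779 (0.669 to 0.905). Zfp830, the splicing factor gene, had a ratio of 0.846 (0.769 to 0.931). Zfp622, which encodes a factor of ribosome assembly, was at 14.0 and 14.4 RPKM, with a ratio of 1.03 (0.948 to 1.12). Zfp346, whose product binds double-stranded RNA, was at 11.7 and 12.3 RPKM, with a ratio of 1.05 (0.906 to 1.22). Zfp62 and Zfp35 had ratios of 1.11 (1.05 to 1.17) and 1.07 (1.01 to 1.15), and Zfp637, at 10.7 and 12.2 RPKM, had an interval that included 1. Over the 25 coding members of this kind past the filter, Zbtb genes included, the median log2 fold was 0.04, with 5 of 24 intervals above 1 and 4 below, against the 27.1% and 23.4% of all rows.

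Another 11 members were listed at 0.01 in both libraries, a value that appears to stand for no reads. They were 14.1% of the members, and 9 of them were coding genes (12.2%, against 31.9% of protein-coding rows). Zfp354b and Zfp454, which are neighbours on chromosome 11, were among them, as were Zfp184, Zfp462, Zfp474, Zfp572, Zfp663, Zfp781, Zfp853, Zfp957 and Zfp286it. A further 15 members had some signal and a mean under 1 RPKM. They include Zfp750, a regulator of epidermal differentiation, at 0.0315 and 0.0818 RPKM (about 3 and 8 fragments), and Zfp516, known from brown fat, at 0.0128 and 0.0290 RPKM (about 3 and 7 fragments). Zfp786, a KRAB gene, was lower in Tet2-/- at 0.133 and 0.0415 RPKM (about 13 and 4 fragments), as was Zfp532 at 0.0504 and 0.0245 RPKM (about 7 and 3 fragments). These 4 had RPKM ratios beyond 2-fold, 2 in each direction, and every one of their intervals included 1. The share of all rows under the filter with such ratios was not computed, so the count cannot be judged. No member was listed at 0.01 in 1 library and at 0.3 RPKM or more in the other.

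Zinc finger genes often lie in tandem arrays, and 31 of the 77 members with a position had another member within 1 Mb. Zinc finger genes that have no row were not counted, so closer neighbours may be missing. They formed 12 groups. Not all of these are tandem arrays: Zbtb22 and Zbtb12 lie 960 kb apart, and Zfp335os is an antisense RNA that overlaps Zfp335. The share of other rows with such a neighbour was not computed. Chromosome 7 held 13 coding members (17.6%, against 9.61% of protein-coding rows) and chromosome 13 held 7 (9.46%, against 3.72%). The 4 members on chromosome 13 between 67121660 and 67637791 (mm10) did not share a direction: Zfp759 and Zfp58 had log2 folds of -0.20 and -0.26, Zfp456 had 0.39, and Zfp729a was at 5.36 RPKM in WT cells and 5.37 RPKM in Tet2-/- cells. On chromosome 8 between 69209038 and 69791178, Zfp930, Zfp868 and Zfp866 had log2 folds from -0.10 to 0.01. On chromosome 7 between 12415153 and 12985714, Zfp551, Zscan22 and Zfp446 ran from -0.24 to -0.05, and on chromosome 9 between 20345136 and 20605409, Zfp560, Zfp266 and Zfp846 ran from -0.01 to 0.19. The 22 members past the filter in such groups had a median log2 fold of -0.01, against 0.00 for the 30 outside them.

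**Figure D4:**
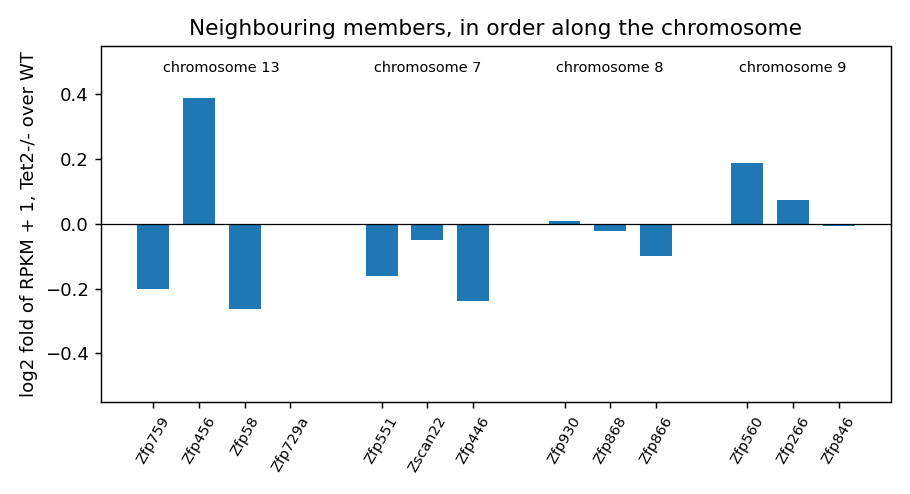
Log2 fold of RPKM + 1, Tet2-/- over WT (vertical), of members past the filter in the 4 groups that hold at least 3 of them, in order along each chromosome (horizontal). The chromosome 13 group holds both -0.26 (Zfp58) and 0.39 (Zfp456), and the other 3 groups stay between -0.24 and 0.19.

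Tet2 acts on methylated cytosines, most of which lie in CpG, so the CpG content of the members' promoters is given as background to these values. Methylation was not measured. The windows are those of RefSeq (build GRCm38.p6, 250 bases before to 50 after a start site), and the window with most CpG was taken for each gene. Only 58 of the 78 members (74.4%) had a window, too few for a check over the whole set, which is therefore void. Among members past the filter 42 of 52 (80.8%) had one. Of the others, Zfp521 (log2 fold -0.38), Zfp707 (-0.30), Zfp446 (-0.24), Zfp90 (-0.20), Zfp703 (-0.16), Zfp438 (-0.06) and Zfp51 (-0.04) were below 0. Zfp930 (0.01), Zfp407 (0.09) and Zfp35 (0.10) were above 0. These 42 windows held from 1 to 45 CpG with a median of 18.5, against a median of 23 in the 1426 windows of protein-coding rows past the filter. Across the 42 genes, which share both libraries and are not replicates, CpG number and log2 fold had a Pearson's r of 0.14 and a Spearman's rho of 0.23. Most genes without a window were lower in Tet2-/-, and how this gap bears on these values and on the medians by CpG number below was not tested.

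The promoters of the members with the lowest and highest log2 fold (Zfp667 and Zfp456) and of those with the fewest and most CpG (Zfp235 and Zbtb41) are shown with each CpG in capitals.
Zfp667: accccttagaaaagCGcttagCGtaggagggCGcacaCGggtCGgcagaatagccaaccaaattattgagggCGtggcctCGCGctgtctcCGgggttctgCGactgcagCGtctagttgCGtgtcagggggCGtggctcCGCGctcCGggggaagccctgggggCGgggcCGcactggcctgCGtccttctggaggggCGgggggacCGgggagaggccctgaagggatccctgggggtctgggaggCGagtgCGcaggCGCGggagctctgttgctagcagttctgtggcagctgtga
Zfp456: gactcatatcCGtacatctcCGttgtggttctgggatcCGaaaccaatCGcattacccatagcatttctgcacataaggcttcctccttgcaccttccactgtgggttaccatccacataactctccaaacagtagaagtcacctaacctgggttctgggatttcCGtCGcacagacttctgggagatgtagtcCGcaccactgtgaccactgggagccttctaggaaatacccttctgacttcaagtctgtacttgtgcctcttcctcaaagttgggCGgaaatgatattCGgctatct
Zfp235: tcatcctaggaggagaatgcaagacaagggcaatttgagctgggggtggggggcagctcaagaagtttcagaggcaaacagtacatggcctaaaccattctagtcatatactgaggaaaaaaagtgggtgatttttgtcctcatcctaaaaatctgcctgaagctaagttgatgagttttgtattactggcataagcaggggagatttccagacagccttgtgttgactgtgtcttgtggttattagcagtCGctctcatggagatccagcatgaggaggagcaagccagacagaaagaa
Zbtb41: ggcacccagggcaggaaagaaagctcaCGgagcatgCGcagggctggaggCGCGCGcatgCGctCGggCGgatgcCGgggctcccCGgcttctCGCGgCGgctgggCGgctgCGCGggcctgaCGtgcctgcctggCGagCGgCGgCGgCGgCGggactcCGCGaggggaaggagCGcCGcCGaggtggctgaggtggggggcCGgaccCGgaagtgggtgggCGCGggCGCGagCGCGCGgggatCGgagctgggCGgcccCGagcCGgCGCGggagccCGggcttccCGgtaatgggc
The Zfp667 window (chr7:6286330-6286629, plus strand) held 25 CpG and 67.7% G+C. The Zfp456 window (chr13:67375714-67376013, minus strand) held 9 CpG and 49.0% G+C. Zfp235, with 1 CpG (chr7:24132122-24132421, plus strand), was at 3.16 RPKM in WT cells and 3.32 RPKM in Tet2-/- cells, a ratio of 1.05 (0.898 to 1.23). That window ends before the start of the gene in GENCODE M21 (24134169), while the other printed windows span theirs. Zbtb41, with 45 CpG (chr1:139422133-139422432, plus strand), had the ratio of 1.12 given above. Zfp58, with 5 CpG, had the ratio of 0.787 (0.647 to 0.955). The 20 members with at least 20 CpG had a median log2 fold of 0.06, and the 22 with fewer had -0.01.

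**Figure D5:**
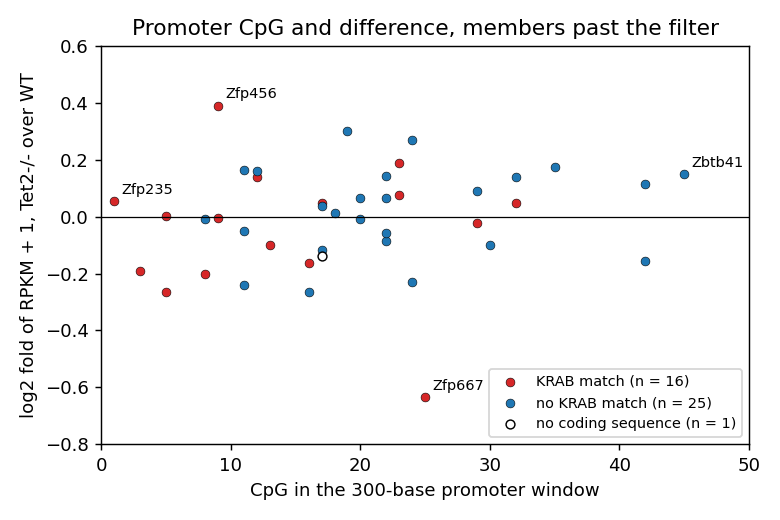
Log2 fold of RPKM + 1, Tet2-/- over WT (vertical), against the number of CpG in the promoter window (horizontal) for the 42 members past the filter that have a window, coloured by KRAB match. Zfp667 with 25 CpG and Zfp456 with 9 CpG lie furthest from 0.

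Few partners of these proteins were listed, too few for a count of 0 beyond 2-fold to say much beside the 2.90% higher and 1.61% lower among all rows past the filter. Of 21 genes of the KRAB corepressor complex 3 were listed and none passed 2-fold in either direction: Chd3, a chromatin remodeller, was at 165 RPKM in WT cells and 140.2 RPKM in Tet2-/- cells, Sumo2 at 260 and 259 RPKM, and Smarcad1 at 8.47 and 8.61 RPKM. Of 18 BTB corepressors and cofactors 4 were listed and 0 passed. The histone deacetylase gene Hdac5 was at 20.4 and 27.8 RPKM, with a ratio of 1.36 (1.29 to 1.44), Ctbp1 at 91.7 and 97.7 RPKM, Rcor1 at 38.9 and 43.7 RPKM and Mbd3 at 59.9 and 50.7 RPKM. Of 18 SP family and KLF partner genes 5 were listed and 0 passed, the 4 past the filter having log2 folds from -0.21 to -0.05. Sp1, which binds the GC-rich sites that KLF proteins also bind, was at 28.6 and 25.4 RPKM, and the acetyltransferase genes Ep300 and Kat2a were at 23.0 and 22.1 RPKM and at 17.0 and 14.8 RPKM. Sap30l was at 20.2 and 17.3 RPKM. Of 22 genes known to be regulated by KLF factors 2 were listed, the integrin gene Itgb7 at 106 and 98.9 RPKM and Smad7 at 1.79 and 2.33 RPKM.

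Zinc finger regulators with other names included a gene beyond 2-fold. Of 69 on that list 14 were listed and 7 passed the filter, with 0 higher by 2-fold or more and 1 lower, the repressor gene Hic1, at a ratio of 0.281 (0.246 to 0.321). The blood cell regulators Ikzf2 and Gfi1b had ratios of 1.11 (1.02 to 1.21) and 1.02 (0.953 to 1.10). Rsl1, a KRAB gene, was at 4.56 and 5.06 RPKM. Over every row outside the set whose coding sequence held at least 2 fingers, 18 of 42 passed the filter, 0 were higher and 2 were lower by 2-fold or more, against the 2.90% and 1.61% of all rows. The 2 lower rows were Hic1 and the predicted KRAB gene Gm2004, at 7.50 RPKM in WT cells and 0.498 RPKM in Tet2-/- cells. All of the Gm2004 transcript sequence (100%), read in short words, also occurs in other genes, against 0% for Hic1. The Gm2004 value therefore depends on how shared reads were assigned, and it has no counting interval. Whether these 2 of 18 rows differ from 0 of 52 members was not tested.

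Several markers of other myeloid cells differed between the cultures. Of 12 macrophage and monocyte markers 5 were listed, with a summed level of 0.985 RPKM in WT cells and 23.4 RPKM in Tet2-/- cells. Most of the Tet2-/- sum came from Ly6c2 (0.479 and 18.8 RPKM). Csf1r, C1qb, Mrc1 and Msr1 were also higher in Tet2-/- cells, at 0.775 to 1.51 RPKM there. The 3 listed of 8 neutrophil markers summed to 1.10 and 10.1 RPKM, most of it from Ly6g (1.10 and 9.61 RPKM), with Csf3r listed at 0.01 in both. The 3 listed of 6 eosinophil and basophil markers summed to 57.0 and 166 RPKM, most of it from Mcpt8 (56.1 and 163 RPKM). Ear2 was at 0.117 and 1.45 RPKM, while Il5ra, at 0.712 and 0.820 RPKM, had an interval that included 1. The 4 listed of 15 mast cell markers summed to 1202 and 970.4 RPKM, most of it from Fcer1g (594 and 438 RPKM) and Slc18a2 (572 and 491 RPKM). Mitf was at 31.3 and 30.9 RPKM, and Smpx went the other way, at 4.18 and 10.5 RPKM. The listed gene of 6 lymphocyte markers was at 0.0250 and 0.147 RPKM, and that of 7 erythroid and megakaryocyte markers at 0.01 in both. Kit and Fcer1a, which define mast cells, were not analysed here. The part of other cell types in the members' values was not tested.

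Some values are uncertain because reads may be shared. Of 50-base words in the transcripts, 44 members shared none with another gene, but Zfp781 shared 96.3%, Zscan4d 49.6%, Zfp58 46.6%, Zfp931 23.3%, Zfp354b 18.3% and Zfp456 18.1%. In all, 23 members, some of which also share words, overlap a gene on the opposite strand. Among them are Zfp90, Zfp213, Zfp456, Zbtb12 and Zbtb22, and the labels do not state that strand was kept. The 37 members past the filter without such an overlap had a median log2 fold of -0.01, and the 15 with one had 0.01.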

How the data were processed

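Cultured mast cells gave 1 WT and 1 Tet2-/- RNA library. The authors deposited RPKM values per gene symbol, per the file headers. The submitters' processing notes name mm10. Which aligner, counter and gene models they applied is not given in the sources used here. Since RPKM divides by total reads, a gene with many reads lowers the others. The members, lists and rules were chosen with earlier results of these data known.

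Symbols were matched to GENCODE M21 (GRCm38), 77 of the 78 members matching. Fingers and KRAB and SCAN boxes were searched by residue patterns in the longest basic coding sequence, since no RefSeq protein was used here. Depth was the value at which low RPKM values of genes with 1 transcript came within 0.1 of a whole fragment most often (94.5% of 509 genes in WT, 94.6% of 534 in Tet2-/-, where chance gives 20%). The effective length was the transcript length less 169 bases in WT and 180 in Tet2-/-, both also inferred. Fragments used the shortest basic transcript of at least 400 bases. Genes entered at a mean of 1 RPKM or more, and 2-fold on the log2(RPKM + 1) scale replaced a test. The value 0.01 was read as no reads, although 67 WT and 80 Tet2-/- values are smaller.

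Named were all Zscan and Zkscan members, the 5 highest Zbtb and Zfp members by mean, the 10 with the largest and the 10 with the smallest log2 fold past the filter, listed methyl-DNA readers, and up to 4 genes of each related list. Others were named after their values were seen. The calculations were tested on simulated data. Alternatives were other pseudocounts, filters, thresholds and scaling, and coding rows only. Scripts ran in Python 3.11.15 with scipy 1.17.1, pandas 2.3.3, matplotlib 3.10.9 and numpy 2.4.6.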

Additional observations from a re-analysis of the deposited data

How the results depend on the processing

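The counts of 0 members higher and 0 lower by 2-fold were also 0 with a pseudocount of 0.1 RPKM and with median-ratio scaling. Neither could have given another count, because the RPKM ratios ran from 0.571 to 1.52 and scaling shifted log2 ratios by 0.01. A pseudocount of 5 RPKM, a mean of at least 5 RPKM, a 4-fold threshold, coding rows only, and leaving out the 4 members that share over 20% of their 50-base words (chosen after seeing the data) can only give 0 from 0, and with no filter the pseudocount keeps low members from 2-fold, so these say nothing about stability. At a threshold of 1.5-fold, 1 member was lower. The median log2 fold of members lay between -0.01 and 0.02 under every alternative run. An alternative chosen after seeing the data, fragments from the longest transcript, gave 10 members with an interval above 1 in place of 6, and 10 below as before. Of 90 alternative values of 30 named members, 89 moved by less than the distance from the middle to the end of the counting interval on the log2 scale or had no interval, and 1 moved, that of Zfp521 with a pseudocount of 5 RPKM (-0.25 in place of -0.38). Zfp667 has a wide interval with the shortest transcript and so counts among the 89, but with that pseudocount it was at -0.34 in place of -0.63, under 1.5-fold. Scaling shifted all log2 ratios by 0.01 and changed the sign of 0 named members. No paired analysis was possible because there is a single WT and a single Tet2-/- library, and none could be left out.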

Other observations

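Among the rows outside the set that encode at least 2 fingers, the predicted KRAB gene Gm2004 stood furthest apart, with 7.50 RPKM in WT cells and 0.498 RPKM in Tet2-/- cells and a log2 fold of -2.50. All of its 50-base words (100%) occur in transcripts of other genes, Gm14419 being the closest, so its value depends on how shared reads were assigned. Hivep3, which encodes a large zinc finger protein, had 5.41 and 8.53 RPKM in the same order, so the ratio was 1.58 (1.40 to 1.77), and shared 0.23% of its words. These genes were named after their values were seen.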
